A study of Mus musculus with 36 samples.

Results

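Fibroblasts that had grown for 48 h in direct contact with tumour clone E were set beside fibroblasts that had grown for the same time with tumour clone H. The pair made up 8 of the 36 libraries of the series, with 4 libraries for each clone. The cells were murine pancreatic fibroblasts of the C57BL/6 strain. The tumour sub-clones expressed GFP, by which the cell types were parted in a flow sorter before the fibroblasts were lysed for RNA. Fibroblasts grown alone (mono-culture, 4 libraries) gave the reference level of each gene. The remaining libraries came from co-culture with clones K, M, N, T and V and with KPC1, a line that the labels name without explaining. The labels give no allele, drug or age for any group, and each tumour clone stands for 1 line. The pair was chosen by its measured difference: both clones sit in metabolic group 1 of the study, and the fibroblasts had already been seen to differ widely. Levels with clone E against clone H are therefore given as descriptions without p-values. Tests are given for each co-culture against mono-culture, and since the same 4 mono-culture libraries enter both, their values stand side by side. The labels do not say whether the libraries of a group came from separate cultures, so p-values measure the spread between these libraries, which may be technical.

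As background, fibroblasts sense a shortage of amino acids or an overload of the endoplasmic reticulum through the integrated stress response, in which phosphorylation of eIF2alpha slows protein synthesis while the transcription factor ATF4 is made. ATF4, with C/EBP partners, binds composite elements near genes for amino acid enzymes, amino acid transporters and the enzymes that charge tRNAs. Interferon acts by a separate route that ends at a response element near antiviral genes. Pancreatic fibroblasts in contact with tumour cells are known to leave a resting, matrix-organising state for contractile, inflammatory or antigen-presenting ones.

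Upstream sequences are shown for 6 genes that were higher with clone H, without overlap, so that the known elements can be seen beside the values given further on: an amino acid enzyme, 3 stress-response regulators and 2 interferon genes. Sequences are from RefSeq, build GRCm38.p6, run 5′ to 3′ on the strand of the gene, and end before the annotated start of transcription. In the first 4, capitals mark the C/EBP-ATF composite element, TGATG then any base then AA then any base, on either strand. They lie at chr6:7693210-7693277, minus strand, for Asns (asparagine synthetase), at chr2:119351003-119351101, plus strand, for Chac1 (which degrades glutathione), at chr1:191183391-191183489, minus strand, for Atf3 (a stress-induced repressor), and at chr7:126625528-126625626, minus strand, for Nupr1 (a stress-induced chromatin protein).
Asns: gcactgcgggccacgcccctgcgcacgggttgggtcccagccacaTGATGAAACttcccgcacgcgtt
Chac1: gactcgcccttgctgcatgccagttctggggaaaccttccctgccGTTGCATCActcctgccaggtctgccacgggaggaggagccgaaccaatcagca
Atf3: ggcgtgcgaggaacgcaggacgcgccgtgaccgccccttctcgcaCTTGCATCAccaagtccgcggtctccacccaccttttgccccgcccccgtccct
Nupr1: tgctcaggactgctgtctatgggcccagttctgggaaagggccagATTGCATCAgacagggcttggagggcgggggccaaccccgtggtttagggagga
In the next 2, capitals mark the core of the interferon-stimulated response element, GAAA then 2 bases then GAAA, on either strand. They lie at chr12:26456518-26456617, minus strand, for Rsad2 (an antiviral radical enzyme), and at chr5:92349048-92349139, minus strand, for Cxcl10 (a chemokine that draws T cells).
Rsad2: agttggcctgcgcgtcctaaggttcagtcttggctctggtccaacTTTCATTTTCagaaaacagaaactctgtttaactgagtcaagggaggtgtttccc
Cxcl10: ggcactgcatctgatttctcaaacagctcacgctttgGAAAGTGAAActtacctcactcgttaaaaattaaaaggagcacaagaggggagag
Over windows of 250 bases before to 50 bases after the start, the composite element was found in 7 of 16 stress-response regulators with a window (43.75%), 3 of 16 amino acid enzymes (18.75%), 2 of 10 amino acid transporters (20%) and 5 of 12 tRNA synthetases (41.67%). Of all 27025 genes with a window, 4.496% held it in any of their windows. The interferon element was found in 15 of 29 interferon genes (51.72%) against 3.993% of all genes. A match of letters does not show that a factor was bound.

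Depth was alike in the 3 groups, with totals of 14772803 to 21621983 counts with clone E, 17441494 to 21985538 with clone H and 12577931 to 20727926 in mono-culture. Levels below are CPM, counts relative to the library total scaled by TMM, and log2 differences come from edgeR, positive where clone E was higher. Of 14439 genes tested, 4569 (31.6%) passed an adjusted p of 0.05 between the clones, 2310 (16%) higher with clone E and 2259 (15.6%) higher with clone H. These shares used the contrast that chose the pair and serve only as the background for the counts below. The 4 libraries of one clone lay beyond the 4 of the other in 27.4% of genes, with clone E higher in 13.9% and clone H higher in 13.5%. At least a 2-fold difference was passed by 733 genes higher with clone E and 305 higher with clone H. Their total of 1038 was 477 among the genes with at least 10 counts in every library, and limma gave 265 on log2(RPKM + 1) and 673 on log2(RPKM + 0.1). Against mono-culture, 4622 genes (32%) changed with clone E, 2377 (16.5%) up and 2245 (15.5%) down, and 7826 (54.2%) changed with clone H, 4011 (27.8%) up and 3815 (26.4%) down. Among the 21 pairs of the 7 clones, E and H ranked 10 by the count of genes. Clone E was nearest to clone N, with 183 genes, and clone H to clone V, with 56.

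The fibroblast label held in all 12 libraries: 12 of 12 fibroblast markers were measured, and their summed level was 19438 to 29078 CPM with clone E, 15419 to 19583 with clone H and 21478 to 23350 in mono-culture. Epithelial markers summed to 279 to 537 CPM with clone E, 79.7 to 282 with clone H and 5.47 to 7.92 in mono-culture, so they moved with the pair. Of 20 epithelial markers, 14 passed the filter on low counts, and Epcam and Cldn4 were at 0 in the 8 libraries. Endothelial markers summed to at most 8.34 CPM, immune markers to at most 14.1 and acinar markers to at most 7.14 in the 8 libraries. Pericyte markers summed to 357 to 629 CPM with clone E, 146 to 369.9 with clone H and 104 to 116 in mono-culture, and 4 of 6 passed the filter, with Notch3 and Mcam the most abundant. Mesothelial markers summed to 68.3 to 131, 18.7 to 77.2 and 8.82 to 15.2 CPM in the same order, from Msln and Krt19, the 2 of 6 that passed the filter, with Lrrn4 and Upk1b at 0 in the 8 libraries. Transcripts of the mitochondrial genome took 3.85% to 4.23% of counts with clone E, 3.32% to 3.56% with clone H and 2.16% to 4.31% in mono-culture. The part of these shifts in the gene differences was not tested. In bulk RNA, fewer cells of a type and less RNA per cell cannot be told apart.

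**Figure D1:**
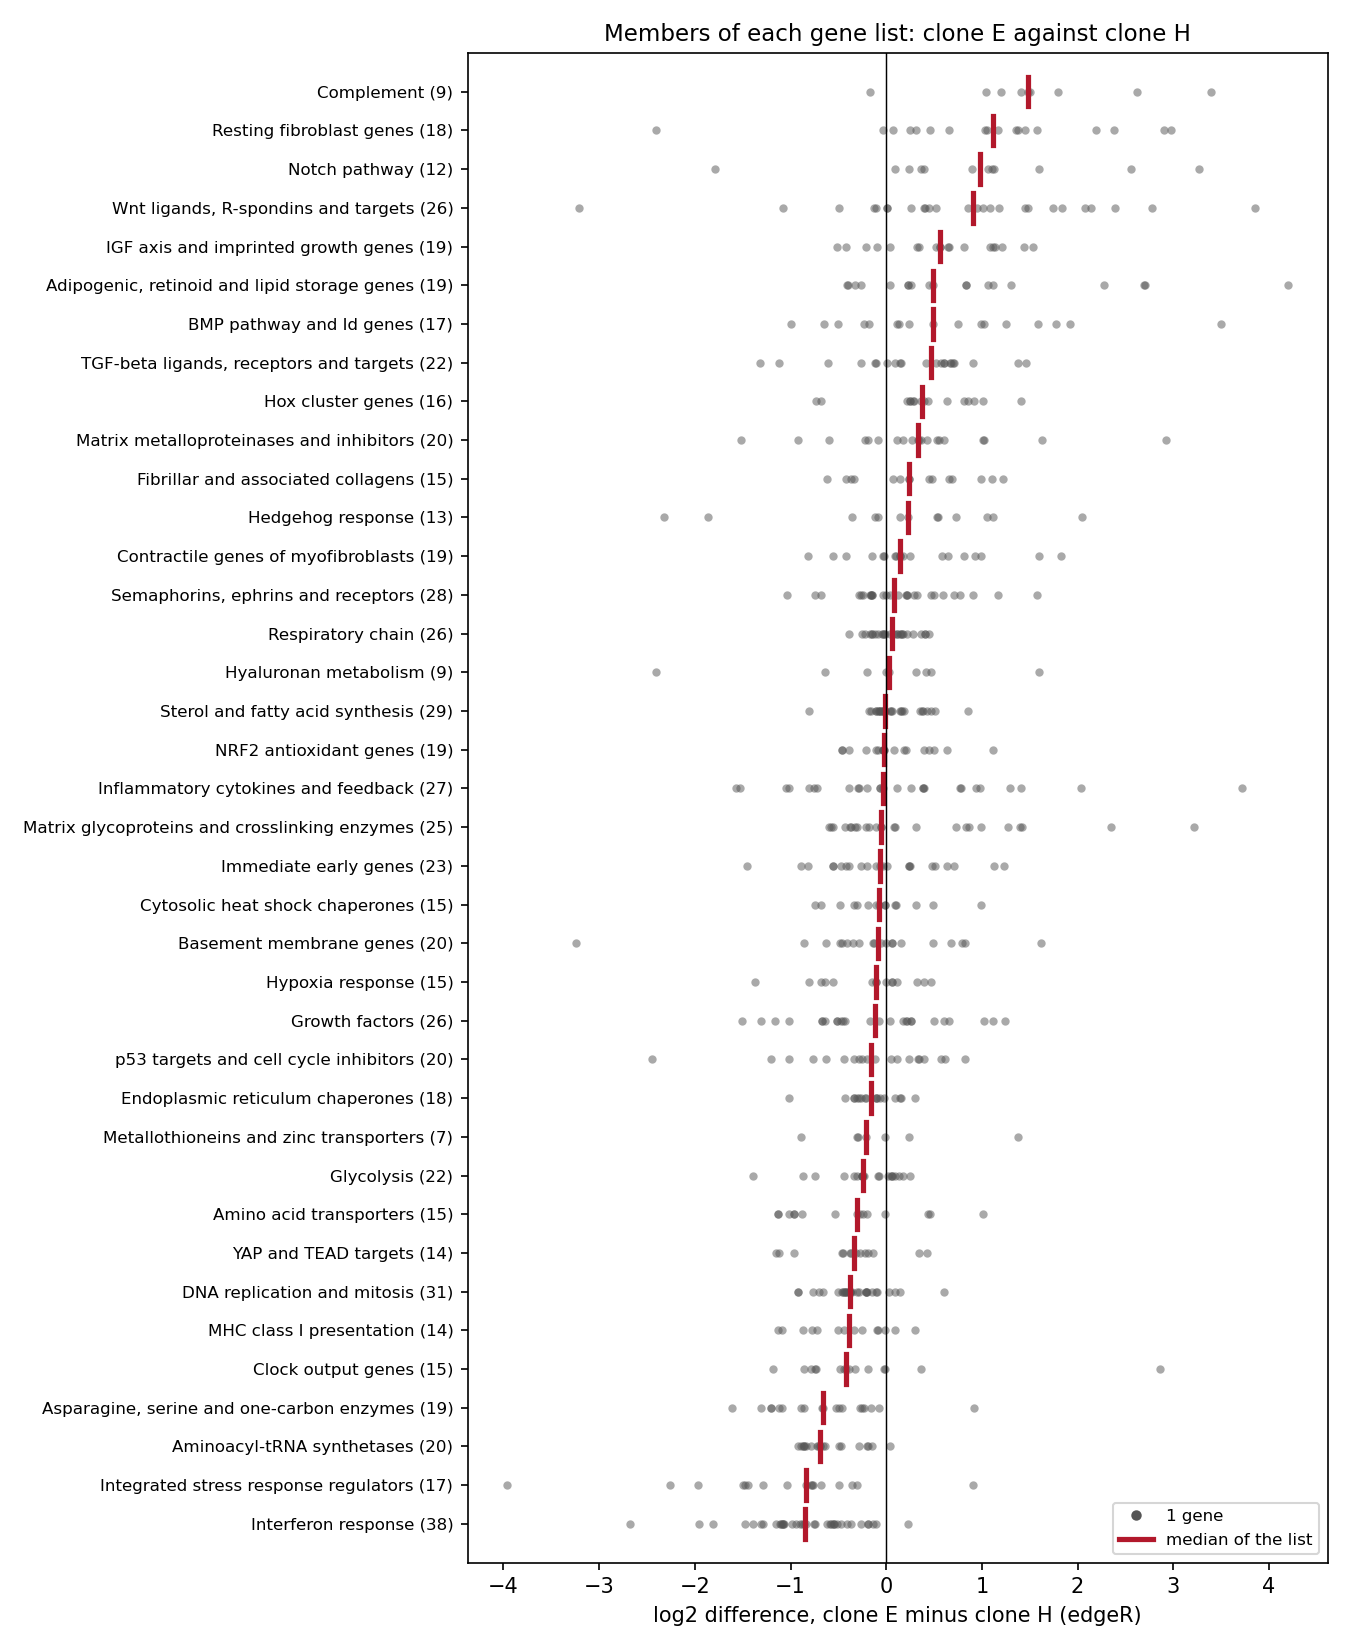
Log2 difference between clone E and clone H (x axis, clone E minus clone H) for the tested members of each gene list (y axis, number of members in brackets), with 1 point for each gene and a red bar at the median. The interferon, stress-response, tRNA synthetase and amino acid enzyme lists lie lowest, with medians of -0.85, -0.84, -0.69 and -0.67, and complement and resting fibroblast genes lie highest, at 1.48 and 1.11.

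The regulators of the integrated stress response were mostly higher with clone H. Of 17 members, all tested, 13 passed the threshold on the clone H side and 1 on the clone E side, with a median log2 difference of -0.84 against 0.02 for all genes, and libraries of 12 did not overlap with clone H higher. Against mono-culture, 15 of the 17 rose with clone H and 1 fell, while 3 rose and 4 fell with clone E. Atf4, the central factor, stood at 583, 442, 541 and 457 CPM in the 4 clone E libraries and at 881, 974, 1009.5 and 749.99 CPM in the 4 clone H libraries. All 4 clone H libraries lay above every clone E library, at a log2 difference of -0.84 (SE 0.14). Mono-culture held 481, 674, 574 and 651 CPM, and Atf4 rose with clone H by 0.60 (SE 0.14, adjusted p = 0.000496) on the log2 scale while the clone E value was -0.23 (SE 0.14, adjusted p = 0.21). Ddit3, which encodes the pro-apoptotic factor CHOP, was at 72.8, 69.8, 71.2 and 70.7 CPM with clone E, at 186, 283, 291 and 353 CPM with clone H and at 125, 136, 140.2 and 126 CPM in mono-culture. The clone E libraries differed little among themselves and all lay below mono-culture, and the clone H libraries all lay above it. The log2 difference of the pair was -1.97 (SE 0.21). Ddit3 fell with clone E, at -0.89 (SE 0.21, adjusted p = 0.00132), and rose with clone H, at 1.08 (SE 0.21, adjusted p = 5.79e-05).

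Atf3 was at 5.55, 3.36, 5.58 and 4.85 CPM with clone E and at 18.02, 25.2, 35.8 and 13.3 CPM with clone H, a log2 difference of -2.26 (SE 0.39). Chac1 was at 54.6, 30.6, 51.8 and 25.7 CPM with clone E and at 117, 133, 138 and 71.4 CPM with clone H, a log2 difference of -1.50 (SE 0.28). Neither gene overlapped between the clones, and the lowest clone H library was replicate 4 for both. Trib3, a pseudokinase that restrains ATF4, differed by -1.45 (SE 0.25). Ppp1r15a, the phosphatase subunit that restores translation, differed by -1.47 (SE 0.28), from 66.6, 43.4, 62.9 and 59.03 CPM with clone E to 161, 159.5, 222 and 101 CPM with clone H. It rose with clone H by 2.00 (SE 0.29, adjusted p = 1.33e-06), and its clone E value against mono-culture was 0.53 (SE 0.28, adjusted p = 0.157). Nupr1 was at 53.8, 42.8, 66.3 and 63.9 CPM with clone E and 105, 121, 167 and 161 CPM with clone H, again without overlap. Atf5, a relative of ATF4, went the other way: it stood at 167, 139.6, 92.9 and 118 CPM with clone E, at 82.3, 57.02, 63.5 and 73.9 CPM with clone H and at 319, 370.2, 324 and 454 CPM in mono-culture. Atf5 fell in both co-cultures, at -1.50 (SE 0.23, adjusted p = 1.15e-05) with clone E and at -2.41 (SE 0.24, adjusted p = 3.04e-09) with clone H. On the scale of RPKM, which divides by gene length, Atf4 was the most abundant of the regulators named here with clone H (RPKM 513 ± 49.5, SD, n = 4), followed by Ddit3 (RPKM 284 ± 80.5).

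The enzymes that make asparagine, serine and one-carbon units followed the same side. Of 19 members, 12 passed the threshold higher with clone H and 1 higher with clone E (median -0.67), and against mono-culture 14 rose and 1 fell with clone H, while none rose and 1 fell with clone E. Asns, which makes asparagine, was at 294, 160.2, 176 and 171 CPM with clone E, 464, 509, 521 and 349 CPM with clone H and 137, 205, 171 and 180.2 CPM in mono-culture. Replicate 1 was the highest clone E library and still lay below every clone H library, and the log2 difference was -1.20 (SE 0.22). Asns rose with clone H by 1.41 (SE 0.23, adjusted p = 5.47e-06), and the clone E value was 0.21 (SE 0.22, adjusted p = 0.52). Gpt2, mitochondrial alanine aminotransferase, was at 105, 65.01, 64.8 and 74.2 CPM with clone E and 274, 261, 253 and 154 CPM with clone H, a log2 difference of -1.61 (SE 0.21). Mthfd2, a mitochondrial folate enzyme, differed by -1.31 (SE 0.25) and Got1, cytosolic aspartate aminotransferase, by -1.20 (SE 0.17), both without overlap. Both rose with clone H, Mthfd2 by 1.17 (SE 0.25, adjusted p = 0.000275) and Got1 by 1.30 (SE 0.17, adjusted p = 3.40e-07). Their clone E values were -0.14 (SE 0.25, adjusted p = 0.723) and 0.10 (SE 0.17, adjusted p = 0.72).

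Of 15 amino acid transporters, 6 were higher with clone H and 1 with clone E (median -0.31). Against mono-culture 10 rose and 1 fell with clone H, and 2 rose and 1 fell with clone E. Slc3a2, the heavy chain shared by several transporters, was at 328, 242, 244 and 213 CPM with clone E and 507, 552, 583 and 369 CPM with clone H, with no overlap. Its partner Slc7a5, which carries large neutral amino acids, was at 308, 216, 172 and 167 CPM with clone E and 554, 552, 528 and 254 CPM with clone H. Clone H replicate 4 lay among the clone E libraries, so Slc7a5 overlapped. Slc7a5 rose with clone H by 0.73 (SE 0.28, adjusted p = 0.0293), a call that was lost without clone H replicate 1, 2 or 3 or without mono-culture replicate 1 (log2 0.64, 0.64, 0.67 and 0.62). Slc6a9, a glycine transporter, differed by -1.13 (SE 0.23). Of 20 cytosolic tRNA synthetases, which load amino acids onto tRNAs, 15 were higher with clone H and none with clone E (median -0.69), and 17 rose with clone H against 1 with clone E. Nars, for asparagine, was at 511, 351, 346 and 342 CPM with clone E and 813, 801, 816 and 505 CPM with clone H. Clone E replicate 1 was high and clone H replicate 4 low, and these 2 libraries overlapped. Yars, for tyrosine, differed by -0.86 (SE 0.18) without overlap. Without clone E replicate 1 the medians of the amino acid enzymes, transporters and synthetases were -0.86, -0.51 and -0.77, and without clone H replicate 4 they were -0.76, -0.44 and -0.78.

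**Figure D2:**
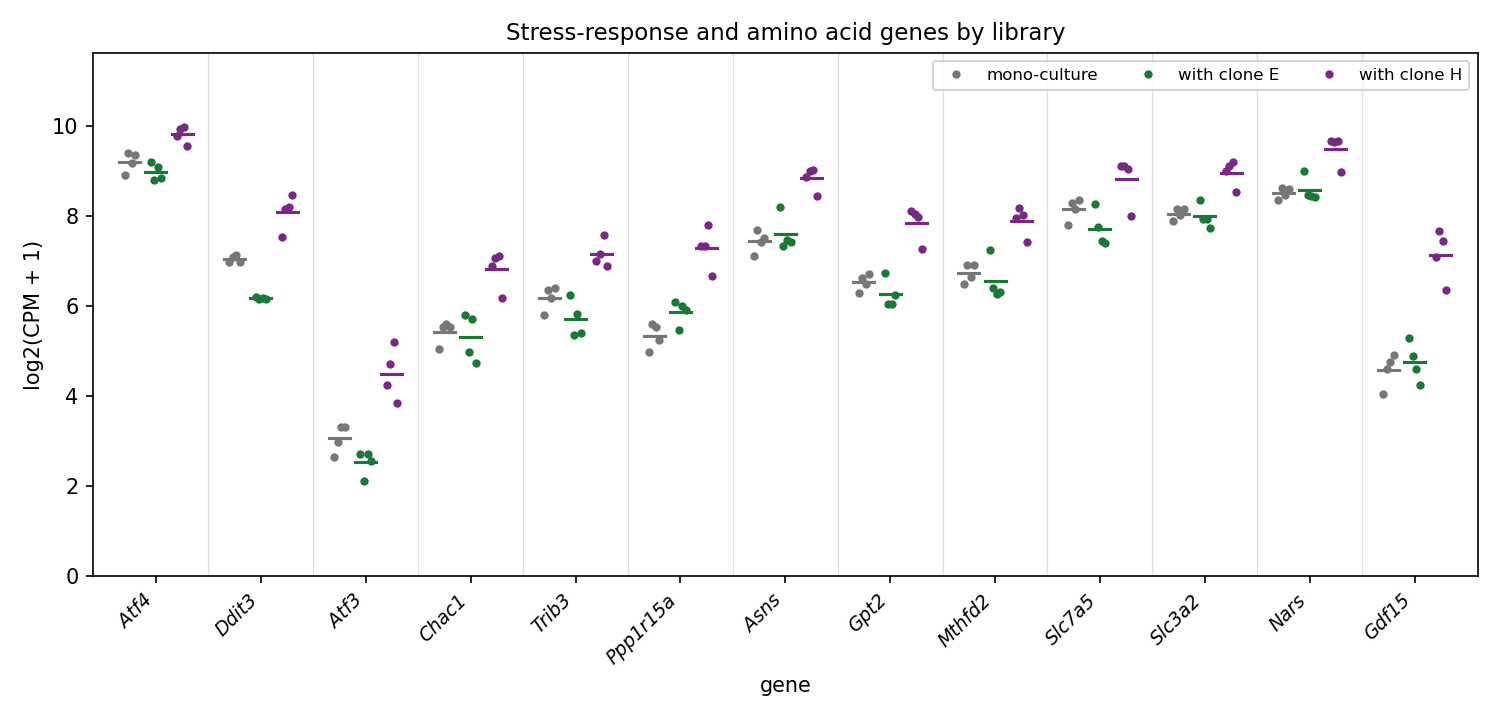
Level of 13 stress-response and amino acid genes (x axis) as log2(CPM + 1) (y axis), with 1 point for each of 4 libraries in mono-culture (grey), with clone E (green) and with clone H (purple) and a bar at the mean. Clone H libraries lie above clone E libraries throughout except for Slc7a5 and Nars, where clone H replicate 4 lies below the highest clone E library. The genes are a selection made with their values known. Not shown are the regulators Atf5, higher with clone E, and Cebpb, Sesn2, Ddit4 and Stc2, whose libraries overlapped.

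Chaperones of the endoplasmic reticulum had a median nearer to level: 4 of 18 were higher with clone H and none with clone E, with a median of -0.16. Hspa5, the main luminal chaperone, was at 688, 507, 509 and 643 CPM with clone E and 591, 719, 1030.4 and 819 CPM with clone H, and the groups overlapped. Ero1l, the oxidase of disulfide formation and not in the chaperone list, was at 96.9, 78.2, 73.5 and 88.7 CPM with clone E. It was at 277, 225, 229 and 142 CPM with clone H, with no overlap and a log2 difference of -1.37 (SE 0.20). Of 20 p53 targets and cell cycle inhibitors, 5 were higher with clone E and 6 with clone H (median -0.16). Among them Gdf15, a stress cytokine, was at 37.9, 28.7, 23.3 and 17.9 CPM with clone E, 134, 201, 174 and 80.3 CPM with clone H and 15.6, 23.1, 26.01 and 29.1 CPM in mono-culture, a log2 difference of -2.45 (SE 0.28). It rose with clone H by 2.65 (SE 0.29, adjusted p = 1.23e-08), and the clone E value was 0.20 (SE 0.28, adjusted p = 0.627). Gadd45a, a growth-arrest gene outside that list, was at 56.6, 48.5, 85.6 and 69.7 CPM with clone E and 186, 252, 331 and 207 CPM with clone H. It rose with clone H by 2.60 (SE 0.30, adjusted p = 3.44e-08) and stood at 0.70 (SE 0.29, adjusted p = 0.0631) with clone E.

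Interferon-response genes lay lower with clone E. Of 39 listed, 38 were tested, 17 were higher with clone H and none with clone E (median -0.85), and libraries of only 5 did not overlap. Against mono-culture 28 of 38 fell and none rose with clone E, and 9 fell and 3 rose with clone H. Cxcl10 was at 10.7, 7.34, 8.403 and 10.8 CPM with clone E, 30.1, 58.3, 97.8 and 52.5 CPM with clone H and 24.2, 18.1, 18.7 and 30.99 CPM in mono-culture. It fell with clone E, at -1.31 (SE 0.37, adjusted p = 0.0075), and rose with clone H, at 1.37 (SE 0.36, adjusted p = 0.00181), and the pair differed by -2.68 (SE 0.38). Rsad2 was at 2.92, 2.78, 5.21 and 5.93 CPM with clone E, 7.78, 12.9, 25.7 and 18.3 CPM with clone H and 18.1, 12.7, 10.3 and 20.1 CPM in mono-culture. Rsad2 fell with clone E, at -1.88 (SE 0.40, adjusted p = 0.000538), and its clone H value was 0.08 (SE 0.37, adjusted p = 0.872). Oasl1, of the oligoadenylate synthetase family, gave -1.25 (SE 0.24, adjusted p = 0.000161) with clone E and 0.06 (SE 0.23, adjusted p = 0.836) with clone H. The clone H libraries were spread: Ifi44, an interferon-induced protein, was at 7.31, 19.2, 48.2 and 52.1 CPM, with replicate 1 inside the clone E range of 7.28, 7.19, 10.6 and 11.4 CPM. Usp18, which damps the interferon receptor, showed the same overlap. It was at 9.401, 26.5, 50.1 and 50.1 CPM with clone H and 8.91, 10.5, 14.4 and 18.4 CPM with clone E. For both genes the later replicates were the higher ones with clone E as well. At each replicate number the clone H library lay above the clone E library, though for Ifi44 replicate 1 only by 7.31 against 7.28 CPM. Whether libraries of the same number form pairs was not tested.

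Of 14 genes of MHC class I presentation, which displays peptides to T cells, 6 were higher with clone H and none with clone E (median -0.39, or -0.14 without clone H replicate 4). Against mono-culture 12 fell and none rose with clone E, and 6 fell and 2 rose with clone H. The heavy chain H2-K1 was at 69.4, 50.9, 46.6 and 58.8 CPM with clone E, 88.4, 133, 125 and 135 CPM with clone H and 106, 93.7, 78.4 and 152 CPM in mono-culture. It fell with clone E at -0.93 (SE 0.20, adjusted p = 0.000767), and the clone H value was 0.16 (SE 0.20, adjusted p = 0.52). H2-T23, a non-classical chain, was at 21.4, 19.4, 27.2 and 25.2 CPM with clone E and 33.2, 51.4, 48.9 and 69.8 CPM with clone H. It rose with clone H by 1.20 (SE 0.22, adjusted p = 3.37e-05), and the clone E value was 0.07 (SE 0.22, adjusted p = 0.855). Class I heavy chains are close copies of each other, so reads may be split between them.

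Genes of DNA replication and mitosis were higher with clone H in 16 of 31 members and with clone E in none (median -0.38), and libraries of 12 did not overlap. Against mono-culture 11 rose and 4 fell with clone H, and 1 rose and 4 fell with clone E. Mki67, a marker of cycling cells, was at 329, 378, 340.5 and 312 CPM with clone E, 656, 714, 716 and 489 CPM with clone H and 317, 278, 302 and 398 CPM in mono-culture. It rose with clone H by 0.99 (SE 0.17, adjusted p = 1.08e-05), and the clone E value was 0.07 (SE 0.17, adjusted p = 0.791). Rrm2, which makes deoxynucleotides, was at 91.4, 66.7, 58.5 and 57.6 CPM with clone E and 116, 172, 128 and 102 CPM with clone H. Bub1, a mitotic checkpoint kinase, differed by -0.77 (SE 0.19), with clone H replicate 1 the lowest of its group and still above clone E. Recql4, a helicase of replication, was at 33.8, 20.3, 31.2 and 40.5 CPM with clone E and 98.98, 108, 115 and 71.9 CPM with clone H, and rose with clone H by 1.96 (SE 0.23, adjusted p = 3.23e-08).

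**Figure D3:**
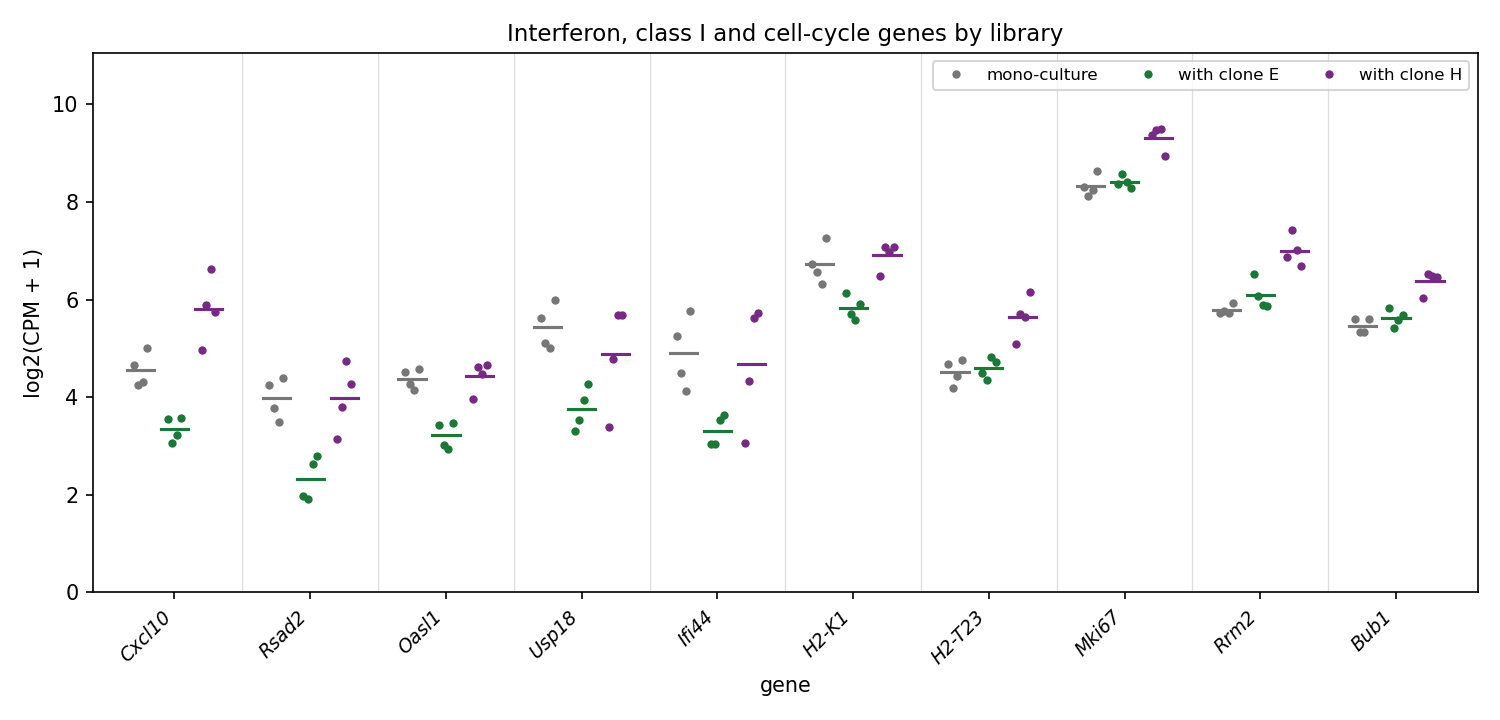
Level of 7 interferon and class I genes and 3 cell-cycle genes (x axis) as log2(CPM + 1) (y axis), with points for single libraries and bars at the means as in the plot of stress-response genes. Clone E lies below mono-culture for Cxcl10, Rsad2, Oasl1, Usp18 and Ifi44, clone H libraries are spread for Usp18 and Ifi44, and Mki67, Rrm2 and Bub1 lie above both other groups with clone H.

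On the clone E side stood genes of resting fibroblasts. Of 20 listed, 18 were tested, 12 were higher with clone E and 1 with clone H (median 1.11). Against mono-culture, 14 fell and 3 rose with clone H, and 8 fell and 5 rose with clone E. Ly6a, the surface antigen Sca-1 of progenitor-like fibroblasts, was at 28.4, 27.7, 40.4 and 19.5 CPM with clone E, 2.04, 2.93, 3.41 and 6.15 CPM with clone H and 10.9, 10.7, 14.4 and 18.1 CPM in mono-culture. It fell with clone H at -1.88 (SE 0.48, adjusted p = 0.00158), and the clone E value was 1.10 (SE 0.45, adjusted p = 0.0593). Ly6a and its near copies may share reads. Cygb, a globin of pancreatic stellate cells, was at 47.8, 83.1, 73.5 and 59.3 CPM with clone E, 19.1, 12.5, 8.05 and 17.8 CPM with clone H and 31.9, 29.8, 31.3 and 19.7 CPM in mono-culture. Cygb rose with clone E, by 1.23 (SE 0.30, adjusted p = 0.00202), and fell with clone H, at -0.97 (SE 0.31, adjusted p = 0.00864). Mgp, an inhibitor of calcification, rose in both co-cultures, to 76.6, 83.6, 53.2 and 49.5 CPM with clone E and 23.1, 24.6, 17.9 and 36.8 CPM with clone H from 11.8, 7.92, 6.16 and 3.43 CPM in mono-culture. Aspn, a small leucine-rich proteoglycan, did likewise, with 92.9, 139.6, 145 and 105 CPM with clone E and 44.7, 62.2, 54.6 and 52.5 CPM with clone H.

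Complement genes formed the list with the highest median (1.48). Of 14 listed, 9 passed the filter on low counts, 7 were higher with clone E and none with clone H. Against mono-culture, 8 fell and none rose with clone H, and 4 fell and 1 rose with clone E. C3, the central component, was at 13.9, 11.7, 8.83 and 7.47 CPM with clone E, 0.958, 2.68, 0.929 and 2.14 CPM with clone H and 66.8, 39.8, 30.04 and 52.6 CPM in mono-culture. C3 fell in both, at -2.17 (SE 0.54, adjusted p = 0.00248) with clone E and at -4.80 (SE 0.63, adjusted p = 3.37e-07) with clone H. C1s, a protease of the classical pathway, was at 125, 247, 210.1 and 182 CPM with clone E and 56.05, 72.6, 47.9 and 93.4 CPM with clone H, below the 339, 311, 292 and 302 CPM of mono-culture. Its companion protease C1ra differed by 1.20 (SE 0.22) and fell in both, at -0.83 (SE 0.21, adjusted p = 0.00304) with clone E and at -2.03 (SE 0.22, adjusted p = 1.21e-08) with clone H. C1qtnf1, a C1q-related secreted protein, was at 66.2, 99.5, 83.9 and 63.1 CPM with clone E and 29.3, 19.6, 17.8 and 23.3 CPM with clone H. It fell with clone H at -1.38 (SE 0.28, adjusted p = 0.000153), and the clone E value was 0.42 (SE 0.27, adjusted p = 0.257).

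Matrix glycoproteins and crosslinking enzymes were split: of 25 tested of 28 listed, 9 were higher with clone E and 5 with clone H (median -0.05). The 5 were Thbs2, Loxl3, Loxl4, Plod2 and P4ha2. Abundant members that did not pass went both ways. Fn1, Tnc, Thbs1 and Fbn1 gave -0.38, -0.58, -0.36 and -0.17, and Bgn and Fbln2 gave 0.31 and 0.08. Thbs2, a thrombospondin, was at 303, 423, 429.7 and 350.5 CPM with clone E and 595, 733, 528 and 419.9 CPM with clone H. The groups overlapped, and the call was lost without clone H replicate 2. P4ha2, a collagen prolyl hydroxylase, was at 53.6, 54.4, 59.5 and 58.6 CPM with clone E and 93.3, 90.5, 76.1 and 71.5 CPM with clone H, without overlap. Fmod, fibromodulin, a proteoglycan outside the list, was at 157, 142, 71.95 and 55.3 CPM with clone E, 14.97, 19.7, 10.4 and 19.6 CPM with clone H and 77.6, 81.9, 64.8 and 39.6 CPM in mono-culture. It fell with clone H at -2.03 (SE 0.41, adjusted p = 0.000155), and the clone E value was 0.69 (SE 0.39, adjusted p = 0.186). Prelp, of the same family and also outside the list, was at 106, 244, 139.8 and 96.1 CPM with clone E. It was at 21.98, 27.6, 14.3 and 27.1 CPM with clone H, a log2 difference of 2.68 (SE 0.40). Dcn, decorin, was at 333, 389, 231 and 280.2 CPM with clone E and 97.3, 134, 67.5 and 163 CPM with clone H, with mono-culture at 412, 453, 225 and 178 CPM. Dcn fell with clone H at -1.46 (SE 0.38, adjusted p = 0.00206), and the clone E value was -0.04 (SE 0.38, adjusted p = 0.958). Lum, lumican, and Eln, elastin, differed by 2.35 (SE 0.50) and 3.22 (SE 0.49), both without overlap. Eln fell with clone H at -2.87 (SE 0.49, adjusted p = 1.38e-05). Nov, a matricellular CCN protein outside the list, was at 181, 250.3, 95.3 and 84.4 CPM with clone E and 19.2, 32.6, 9.599 and 27.2 CPM with clone H. Islr, a marker of stromal cells outside the list, differed by 1.94 (SE 0.30), and the list member Fbln1, fibulin, by 1.28 (SE 0.23). Enpp2, which makes lysophosphatidic acid and is also outside the list, was at 71.96, 148, 113 and 83.02 CPM with clone E. It was at 22.5, 24.9, 17.9 and 24.6 CPM with clone H and 30, 29.5, 20.7 and 15.1 CPM in mono-culture. Enpp2 rose with clone E by 2.13 (SE 0.30, adjusted p = 3.17e-06), and the clone H value was -0.08 (SE 0.30, adjusted p = 0.836).

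Fibrillar and associated collagens overlapped between the clones. Of 15 tested of 16 listed, 5 were higher with clone E and 1 with clone H (median 0.24), and in none did the 4 libraries of each clone stand apart. The 5 were Col1a2, Col3a1, Col6a2, Col12a1 and Col14a1, and the 1 was Col5a3. The Col3a1 call was lost without clone E replicate 2 or 3 or clone H replicate 3, and that of Col12a1 without clone E replicate 2. Col1a1, the main chain of collagen I, was at 7655, 9803, 6814 and 5313 CPM with clone E and 6239.9, 5999, 4779 and 4162 CPM with clone H. Its log2 difference was 0.48 (SE 0.20), and at each replicate number the clone E library was the higher, though whether these form pairs was not tested. Col12a1, a fibril-associated collagen, was at 429, 864, 489 and 264 CPM with clone E and 214, 336, 202 and 127 CPM with clone H. Col12a1 rose with clone E by 1.66 (SE 0.36, adjusted p = 0.000834), and the clone H value was 0.44 (SE 0.36, adjusted p = 0.309). Lama4, a laminin chain of basement membranes, differed by 1.62 (SE 0.36) without overlap. Among contractile genes of myofibroblasts 5 of 19 tested were higher with clone E and 1 with clone H (median 0.14). Acta2, smooth muscle actin, was at 688, 446, 284 and 193 CPM with clone E and 394, 588, 447 and 353 CPM with clone H, and the groups overlapped. Acta2 rose with both, by 1.49 (SE 0.38, adjusted p = 0.00308) with clone E and by 1.64 (SE 0.38, adjusted p = 0.000613) with clone H. Smtn, an actin-binding protein, was higher with clone H, at a log2 difference of -0.82 (SE 0.14). Myh11, smooth muscle myosin, was low in all libraries, at 0.958, 2.16, 1.78 and 1.28 CPM with clone E and 0.299, 0.657, 0.413 and 0.349 CPM with clone H. Timp2, an inhibitor of matrix proteases, was at 1172, 1566, 1165 and 1021 CPM with clone E and 724, 571, 525 and 598 CPM with clone H. It fell with clone H at -1.22 (SE 0.14, adjusted p = 1.55e-08), and the clone E value was -0.20 (SE 0.13, adjusted p = 0.286). Mmp3, stromelysin, was at 5.51, 8.01, 4.36 and 5.81 CPM with clone E and 0.599, 0.657, 0.516 and 1.27 CPM with clone H, and rose with clone E by 2.96 (SE 0.51, adjusted p = 4.51e-05).

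**Figure D4:**
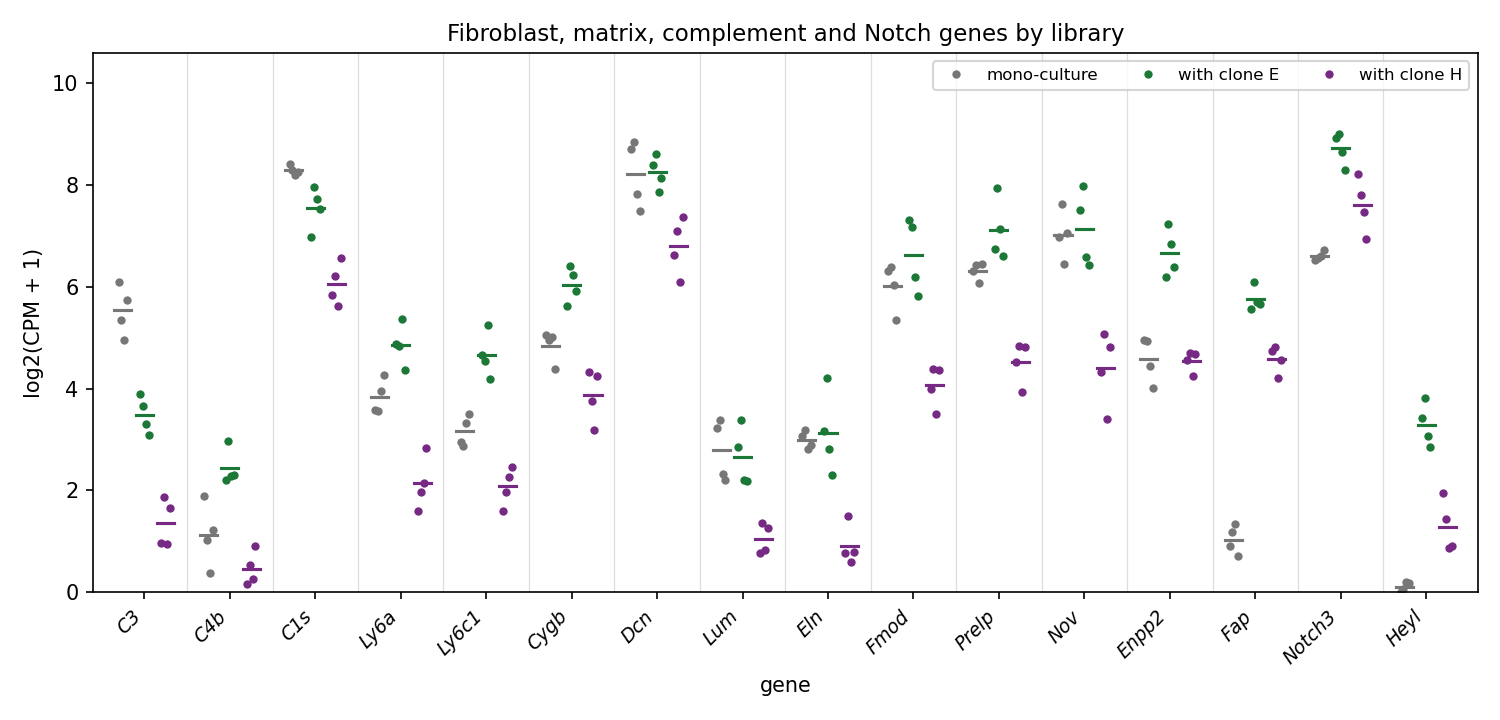
Level of 16 fibroblast, matrix, complement and Notch genes (x axis) as log2(CPM + 1) (y axis), with points for single libraries and bars at the means as in the plot of stress-response genes. Every clone E library lies above every clone H library for these genes, and Dcn, Lum, Eln and Nov with clone E lie within or near the range of mono-culture. The 16 genes are a selection made with their values known. Of the matrix list, 9 were higher with clone E and 5 with clone H, and those 5 are not shown.

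Both receptors of platelet-derived growth factor were higher with clone E. Pdgfra was at 176, 314, 259 and 258 CPM with clone E and 128, 129, 102 and 138 CPM with clone H. It fell with clone H at -1.33 (SE 0.22, adjusted p = 6.82e-06), and the clone E value was -0.31 (SE 0.21, adjusted p = 0.285). Pdgfrb was at 1582, 1956, 1787 and 1331 CPM with clone E, 1117, 961, 791 and 652 CPM with clone H and 579.8, 568, 572 and 585 CPM in mono-culture. Pdgfrb rose with clone E by 1.53 (SE 0.21, adjusted p = 2.26e-06) and with clone H by 0.61 (SE 0.21, adjusted p = 0.0143), and the second call was lost without clone H replicate 1 (log2 0.47). Fap, a protease of activated fibroblasts, was at 46.3, 67.3, 50.9 and 49.2 CPM with clone E, 25.8, 27.3, 17.4 and 22.7 CPM with clone H and 0.881, 1.27, 1.52 and 0.64 CPM in mono-culture. Fap rose with both, by 5.68 (SE 0.29, adjusted p = 3.82e-15) and 4.48 (SE 0.28, adjusted p = 1.28e-12).

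The Notch pathway, by which a ligand on one cell activates a receptor on its neighbour, had 12 of 13 listed genes tested, 5 of them higher with clone E and 1 with clone H (median 0.98). Against mono-culture 9 rose and none fell with clone E, and 8 rose and 1 fell with clone H. Of the ligands, Dll1 was at 3.02, 1.82, 5.58 and 2.23 CPM with clone E and 0.12, 0.303, 0.258 and 0.567 CPM with clone H, while Jag2 was at 0.766, 0.527, 0.491 and 0.638 and 2.16, 1.36, 2.99 and 1.96 CPM in the same order. The receptor Notch3 was at 478, 509.9, 400.1 and 312 CPM with clone E, 294, 220.5, 176 and 121 CPM with clone H and 90.4, 92.97, 96.1 and 104 CPM in mono-culture. Notch3 rose with both, by 2.15 (SE 0.28, adjusted p = 8.52e-07) with clone E and 1.08 (SE 0.27, adjusted p = 0.00119) with clone H. The targets Heyl and Hey1 encode transcriptional repressors. Heyl was at 9.67, 13.1, 7.42 and 6.19 CPM with clone E, 2.87, 1.72, 0.826 and 0.873 CPM with clone H and at most 0.152 CPM in mono-culture. Hey1 was at 8.91, 11.2, 9.998 and 9.57 CPM with clone E, 3.53, 3.94, 3.04 and 2.62 CPM with clone H and 0.33, 0.11, 0.152 and 0.366 CPM in mono-culture, a log2 difference of the clones of 1.60 (SE 0.23).

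Of 22 TGF-beta ligands, receptors and targets, 12 were higher with clone E and 3 with clone H (median 0.46), and against mono-culture 16 rose and 2 fell with clone E and 14 rose and 3 fell with clone H. Members went both ways. Inhba, an activin subunit, was at 23.6, 26.03, 22.9 and 13.3 CPM with clone E and 57.004, 69.4, 51.6 and 37.05 CPM with clone H, from 4.24, 7.92, 7.76 and 8.27 CPM in mono-culture. Fst, which traps activin, was at 13.02, 20.7, 12.1 and 11.9 CPM with clone E and 5.75, 9.09, 3.35 and 2.84 CPM with clone H. Both rose in both co-cultures, Inhba by 1.61 (SE 0.27, adjusted p = 3.72e-05) with clone E and 2.93 (SE 0.27, adjusted p = 1.09e-09) with clone H, and Fst by 3.86 (SE 0.46, adjusted p = 2.82e-07) and 2.39 (SE 0.47, adjusted p = 8.69e-05). Ctgf, a matricellular target, was at 305, 385, 229.7 and 105 CPM with clone E and 302, 846, 711 and 366 CPM with clone H, and the groups overlapped. Tgfbi, a secreted adhesion protein, fell with both, at -1.57 (SE 0.30, adjusted p = 0.000171) with clone E and at -2.94 (SE 0.32, adjusted p = 1.27e-08) with clone H.

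Of the BMP pathway and Id genes, 17 of 21 listed were tested, 7 were higher with clone E and 2 with clone H (median 0.49). Id4, which blocks differentiation factors, was at 7.33, 26.9, 13.7 and 14.4 CPM with clone E, 1.198, 1.21, 1.497 and 1.57 CPM with clone H and 0.881, 1.93, 1.06 and 1.42 CPM in mono-culture. It rose with clone E by 3.54 (SE 0.43, adjusted p = 3.38e-07), and the clone H value was 0.04 (SE 0.48, adjusted p = 0.95). Id3 was at 171, 189, 58.6 and 77.4 CPM with clone E and 36.05, 33.1, 28.6 and 33.3 CPM with clone H, and rose with clone E by 1.48 (SE 0.41, adjusted p = 0.00598). Of Wnt ligands, R-spondins and targets, 26 of 30 listed were tested, 10 were higher with clone E and 1 with clone H (median 0.90). Nkd2, an inhibitor that Wnt signalling induces, was at 12.9, 42.1, 29.8 and 16.3 CPM with clone E, 5.21, 6.87, 4.08 and 7.64 CPM with clone H and 2.09, 2.04, 1.22 and 1.69 CPM in mono-culture. The Wnt antagonist Sfrp1 was at 21.9, 46.6, 22.8 and 23.6 CPM with clone E and 5.93, 9.95, 6.19 and 12.1 CPM with clone H, and rose with clone E by 1.70 (SE 0.33, adjusted p = 0.000195). The R-spondin Rspo3, which strengthens Wnt signals, fell in both co-cultures, at -1.65 (SE 0.30, adjusted p = 7.86e-05) with clone E and at -3.49 (SE 0.33, adjusted p = 9.24e-10) with clone H. Of 13 hedgehog genes 4 were higher with clone E and 2 with clone H. Gli1, the target that reads out the pathway, was at 2.54, 2.16, 4.66 and 2.74 CPM with clone E, 16.3, 8.64, 10.3 and 8.55 CPM with clone H and 1.05, 0.99, 1.52 and 1.74 CPM in mono-culture. Gli1 rose with clone H by 3.04 (SE 0.35, adjusted p = 3.51e-08) and with clone E by 1.17 (SE 0.37, adjusted p = 0.0147), the latter lost without clone E replicate 3 (log2 0.90). Gli2, the activating factor, stood the other way round, at 39.2, 46.1, 42.4 and 44.5 CPM with clone E and 26.8, 20, 16.6 and 16.5 CPM with clone H. Gas1, a co-receptor, was at 193, 290.1, 297 and 395 CPM with clone E, 75.4, 61.7, 37.7 and 110.3 CPM with clone H and 631, 672, 646 and 498 CPM in mono-culture. It fell with clone H at -3.10 (SE 0.37, adjusted p = 8.20e-08) and with clone E at -1.06 (SE 0.35, adjusted p = 0.0198), the latter lost without clone E replicate 1 (log2 -0.90).

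Secreted factors did not share one side. Of 26 growth factors, 9 were higher with clone H and 2 with clone E (median -0.12), and against mono-culture 15 rose and 4 fell with clone H and 14 rose and 5 fell with clone E. Ereg, a ligand of the EGF receptor, was at 21.8, 13.999, 24.5 and 12.7 CPM with clone E, 44.2, 66.4, 73.03 and 23.96 CPM with clone H and 5.505, 5.67, 6.08 and 5.12 CPM in mono-culture. Hbegf, of the same family, was at 62.4, 32.98, 46.2 and 29.4 CPM with clone E and 85.4, 105, 137 and 54.5 CPM with clone H. Both rose with both clones, Ereg by 1.71 (SE 0.36, adjusted p = 0.000455) with clone E and 3.22 (SE 0.36, adjusted p = 2.43e-08) with clone H, and Hbegf by 1.67 (SE 0.32, adjusted p = 0.000208) and 2.82 (SE 0.33, adjusted p = 4.56e-08). Vegfa, which drives vessel growth, was at 150.3, 125, 207 and 192 CPM with clone E and 268, 238, 313 and 228 CPM with clone H, without overlap. Gdnf, a neurotrophic factor, differed by -1.31 (SE 0.32). Of 27 cytokine and feedback genes tested of 34 listed, 6 were higher with each clone. Il6 was at 5.55, 4.84, 3.56 and 3.83 CPM with clone E, 6.17, 9.899, 8.31 and 5.19 CPM with clone H and 0.495, 0.55, 0.608 and 0.32 CPM in mono-culture. The clones overlapped, and Il6 rose with both, by 3.19 (SE 0.42, adjusted p = 1.01e-06) and 3.92 (SE 0.42, adjusted p = 7.71e-09). Ptgs2, which makes prostaglandins, was at 79.3, 66.97, 98.3 and 78.7 CPM with clone E and 206, 274, 349 and 101 CPM with clone H. Cxcl12, a chemokine of stromal cells, was at 329, 559.9, 271 and 343 CPM with clone E, 77.7, 212, 64.9 and 211 CPM with clone H and 1639, 1667, 1340.4 and 1279 CPM in mono-culture. It fell with both, at -1.98 (SE 0.38, adjusted p = 0.000203) and at -3.39 (SE 0.40, adjusted p = 6.80e-08). Ccl11, eotaxin, was at 3.93, 5.85, 10.7 and 13.8 CPM with clone E and below 1 CPM in every other library shown here, and it rose with clone E by 5.64 (SE 0.81, adjusted p = 4.28e-06).

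The 12 genes furthest to the clone E side, among those with a mean of at least 2 CPM, libraries that did not overlap and a call between the clones, were Gda, Il1rn, Serpina3n, Gdpd2, Rbp4, Cdx2, Ccl11, Parm1, Sorcs1, Id4, C4b and Pls1. Il1rn, the interleukin-1 receptor antagonist, was at 27.8, 23.01, 32.7 and 21.8 CPM with clone E, 1.68, 1.46, 0.723 and 0.611 CPM with clone H and 0.44, 0.55, 0.152 and 0.183 CPM in mono-culture. Serpina3n, an acute-phase protease inhibitor, was at 4.45, 10.1, 10.6 and 13.8 CPM with clone E and 0.12, 0.354, 0.206 and 0.916 CPM with clone H. Gdpd2, a phosphodiesterase, was at 9.77, 30.5, 19.997 and 14.8 CPM with clone E, 1.14, 1.06, 0.258 and 1.004 CPM with clone H and 30.2, 31.5, 16.7 and 25.2 CPM in mono-culture. Gdpd2 fell with clone H at -4.90 (SE 0.53, adjusted p = 1.58e-08), and the clone E value was -0.47 (SE 0.41, adjusted p = 0.42). Rbp4, the carrier of retinol in blood, was at 16.9, 16.4, 30.7 and 15.6 CPM with clone E and 1.08, 0.354, 1.34 and 1.48 CPM with clone H. Cdx2, a transcription factor of intestinal epithelium, was at 5.17, 6.9996, 6.56 and 4.28 CPM with clone E, 0.359, 0.0505, 0.981 and 0.305 CPM with clone H and at 0 in the 4 mono-culture libraries. Against a floor of 3 counts per library, Cdx2 was at least 25.2-fold higher with clone E than in mono-culture. Gda, guanine deaminase, Parm1, a mucin-like membrane protein, and Pls1, an actin bundler of epithelial microvilli, differed by 5.66 (SE 0.99), 3.64 (SE 0.49) and 3.30 (SE 0.56). The adipogenic factor Cebpa, chosen as a list member, differed by 2.71 (SE 0.43), from 6.13, 7.57, 5.89 and 5.23 CPM with clone E to 0.599, 0.606, 1.55 and 1.004 CPM with clone H.

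The 12 furthest to the clone H side were Trim54, Nptx1, Cxcl10, Bace2, Gdf15, Cass4, Ptprb, Matn3, Atf3, Slco4a1, Fyb and Tnnt2. Nptx1, a pentraxin of synapses, was at 12.4, 11.3, 50.9 and 30.9 CPM with clone E, 206, 82.7, 402 and 164 CPM with clone H and 0.716, 0.44, 0.608 and 0.777 CPM in mono-culture. It rose with both, by 5.33 (SE 1.16, adjusted p = 0.000743) and 8.36 (SE 1.17, adjusted p = 1.01e-06). Trim54, a muscle ring-finger protein, was at 0.383, 0.144, 0.491 and 0.383 CPM with clone E and 2.87, 2.32, 6.503 and 7.55 CPM with clone H. Tnnt2, cardiac troponin T, was at 6.94, 4.89, 6.87 and 4.53 CPM with clone E and 22.2, 24.6, 36.1 and 19.99 CPM with clone H, and rose with both, by 2.57 (SE 0.53, adjusted p = 0.000438) and 4.71 (SE 0.52, adjusted p = 1.88e-08). Ptprn, a receptor-like protein of secretory granules and among the 6 lowest of the abundant genes, was at 32.9, 22.6, 25.1 and 22.4 CPM with clone E and 105, 111, 108 and 62.2 CPM with clone H. Bace2, a protease, Cass4, an adhesion scaffold, Ptprb, a receptor phosphatase, and Matn3, a matrix protein, differed by -2.63 (SE 0.58), -2.38 (SE 0.46), -2.38 (SE 0.48) and -2.30 (SE 0.37). Slco4a1, an organic anion transporter, and Fyb, an adaptor of immune cells, differed by -2.21 (SE 0.52) and -2.19 (SE 0.44).

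Against mono-culture, 11 of 14 epithelial genes tested rose with clone E and 7 with clone H, and none fell with either. All epithelial markers together summed to only 5.47 to 7.92 CPM in mono-culture. Members near 0 there, such as Krt8, passed the filter on low counts through co-cultures. Such genes had no room to fall, so these counts describe levels and test nothing. Krt8 and Krt18 encode the simple keratin pair. Krt8 was at 110.2, 82.1, 152 and 99.998 CPM with clone E, 39.2, 15.1, 55.4 and 44.3 CPM with clone H and at most 0.0914 CPM in mono-culture. Krt18 was at 155, 115, 225 and 146 CPM with clone E and 81.5, 39.4, 147 and 106 CPM with clone H, which overlapped. Cdh1, E-cadherin, was at 19.6, 15.6, 34.4 and 19.3 CPM with clone E and 2.69, 2.58, 9.08 and 4.63 CPM with clone H, a log2 difference of 2.22 (SE 0.49). Cldn3, a claudin of tight junctions, was at 1.53, 1.53, 3.25 and 1.47 CPM with clone E and at 0 in the 4 clone H and the 4 mono-culture libraries. Cldn6, another claudin, was at 10.1, 7.57, 24.96 and 10.98 CPM with clone E, 10.4, 8.38, 35.4 and 23.1 CPM with clone H and at 0 in mono-culture. Spint2, an epithelial protease inhibitor, was at 1.34, 1.92, 4.17 and 2.62 CPM with clone E and 0.0599, 0.152, 0.31 and 0.305 CPM with clone H. The part of these epithelial transcripts in the levels of other genes, Cdx2, Rbp4, Il1rn, Pls1 and Dll1 among them, was not tested.

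Opposite changes against mono-culture were rare. Of 14439 genes tested, 12 rose with clone E and fell with clone H, and 22 fell with clone E and rose with clone H. By comparison, 4622 genes were called with clone E and 7826 with clone H in either direction. By the rule for named genes, the 12 gave Sorcs1, C4b, Gper1, Ly6c1 and Penk, and the 22 gave Cxcl10, Acot2, Ddit3, H2-K2 and Herpud1. These genes were named because both calls passed, so their adjusted p-values add no further support. Acot2, a mitochondrial acyl-CoA thioesterase, was at 28.2, 22.01, 11.3 and 14.3 CPM with clone E, 73.2, 81.7, 81.9 and 49.7 CPM with clone H and 27.9, 43.2, 39.2 and 35.7 CPM in mono-culture. It fell with clone E at -0.94 (SE 0.24, adjusted p = 0.00319) and rose with clone H by 0.97 (SE 0.23, adjusted p = 0.000831). Ly6c1, a surface antigen related to Ly6a, was at 24.1, 22.1, 37.05 and 17.2 CPM with clone E, 2.04, 2.93, 3.82 and 4.54 CPM with clone H and 6.77, 6.33, 9.05 and 10.3 CPM in mono-culture, so the groups stood on either side of mono-culture. C4b, a complement component, was at 3.64, 6.86, 3.86 and 3.96 CPM with clone E, 0.12, 0.455, 0.206 and 0.873 CPM with clone H and 2.697, 1.05, 0.304 and 1.33 CPM in mono-culture. Herpud1, which helps clear misfolded proteins, was at 139, 108, 88.8 and 75.3 CPM with clone E, 229.99, 225, 223 and 155 CPM with clone H and 137, 151, 141 and 148 CPM in mono-culture. Of the 10 named, Cxcl10, Acot2 and Ddit3 (3 genes) kept both calls whichever library of the 3 groups was left out, and the other 7 lost at least 1 call without some library.

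Other lists lay on either side. Of the IGF axis and imprinted growth genes, 7 of 19 tested were higher with clone E and 0 with clone H (median 0.57), and of the adipogenic, retinoid and lipid storage genes, 8 of 19 tested were higher with clone E and 0 with clone H (median 0.49). Of Hox cluster genes, which hold positional identity, 10 of 16 tested were higher with clone E and 2 with clone H (median 0.38). Hoxa2 was at 7.56, 10.6, 6.62 and 8.23 CPM with clone E and 3.41, 2.42, 1.75 and 4.76 CPM with clone H, and Hoxa3 at 26.9, 30.4, 26.5 and 23.5 CPM with clone E and 14.6, 12.6, 11.5 and 14.5 CPM with clone H. Of clock output genes, 2 of 15 tested were higher with clone E and 7 with clone H (median -0.42). Nfil3, a repressor of the clock, differed by -1.18 (SE 0.24), while Hlf, an activator, was at 1.15, 1.97, 1.104 and 1.404 CPM with clone E, 0.12, 0.202, 0.0516 and 0.349 CPM with clone H and 14.4, 11.7, 8.97 and 12.1 CPM in mono-culture. Of glycolysis genes, 0 of 22 tested were higher with clone E and 4 with clone H (median -0.24). The clone H share was near the 15.6% of all genes, so that count does not set the list apart. Pfkp, a phosphofructokinase, was at 37.1, 35.9, 35.5 and 36.4 CPM with clone E and 77.5, 71.97, 62.6 and 51.9 CPM with clone H, and Pfkfb3, which makes its activator, at 7.37, 6.33, 7.97 and 6.89 CPM with clone E and 13.4, 15.3, 28.1 and 18.1 CPM with clone H. Of YAP and TEAD targets, 0 of 14 tested were higher with clone E and 6 with clone H (median -0.34), and of hypoxia genes, 0 of 15 tested were higher with clone E and 5 with clone H (median -0.10). Sterol and fatty acid synthesis lay near level, as 1 of 29 tested were higher with clone E and 0 with clone H (median -0.01). Respiratory chain, NRF2, heat shock, immediate early, semaphorin, metalloproteinase, basement membrane, hyaluronan and metallothionein lists had medians between -0.22 and 0.33.

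The other co-cultures placed the pair in the series. Of the 1038 genes at least 2-fold apart between the clones and past the threshold, the mean with clone V was nearer to clone H than to clone E on the log2(CPM + 1) scale in 962 (92.68%). The count was 887 (85.45%) for KPC1, 577 (55.59%) for clone T, 160 (15.41%) for clone K, 127 (12.24%) for clone N, 118 (11.37%) for clone M and 307 (29.58%) for mono-culture. These genes were selected on the E and H values, so the shares describe the other lines and test nothing. Asns was at 200.3 ± 62.5 CPM (mean ± SD, n = 4) with clone E, 252 ± 33.1 with clone N, 95.1 ± 10.02 with clone M, 418 ± 113 with clone T, 461 ± 78.4 with clone H and 558 ± 98.4 with clone V. Prelp ran the other way, at 146 ± 67.7 CPM with clone E, 159 ± 40.9 with clone N, 56.6 ± 16.2 with clone T, 22.8 ± 6.16 with clone H and 13.7 ± 9.22 with clone V. Heyl did not follow that order, with 9.11 ± 3.05 CPM with clone E, 1.44 ± 0.819 with clone K, 1.57 ± 0.96 with clone H and 6.63 ± 1.88 with KPC1. Krt8 was at 111 ± 29.8 CPM with clone E, 156 ± 23.9 with clone N, 130.2 ± 69.98 with clone T, 71.7 ± 38.03 with KPC1, 38.5 ± 17.01 with clone H and 19.5 ± 17.7 with clone V.

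**Figure D5:**
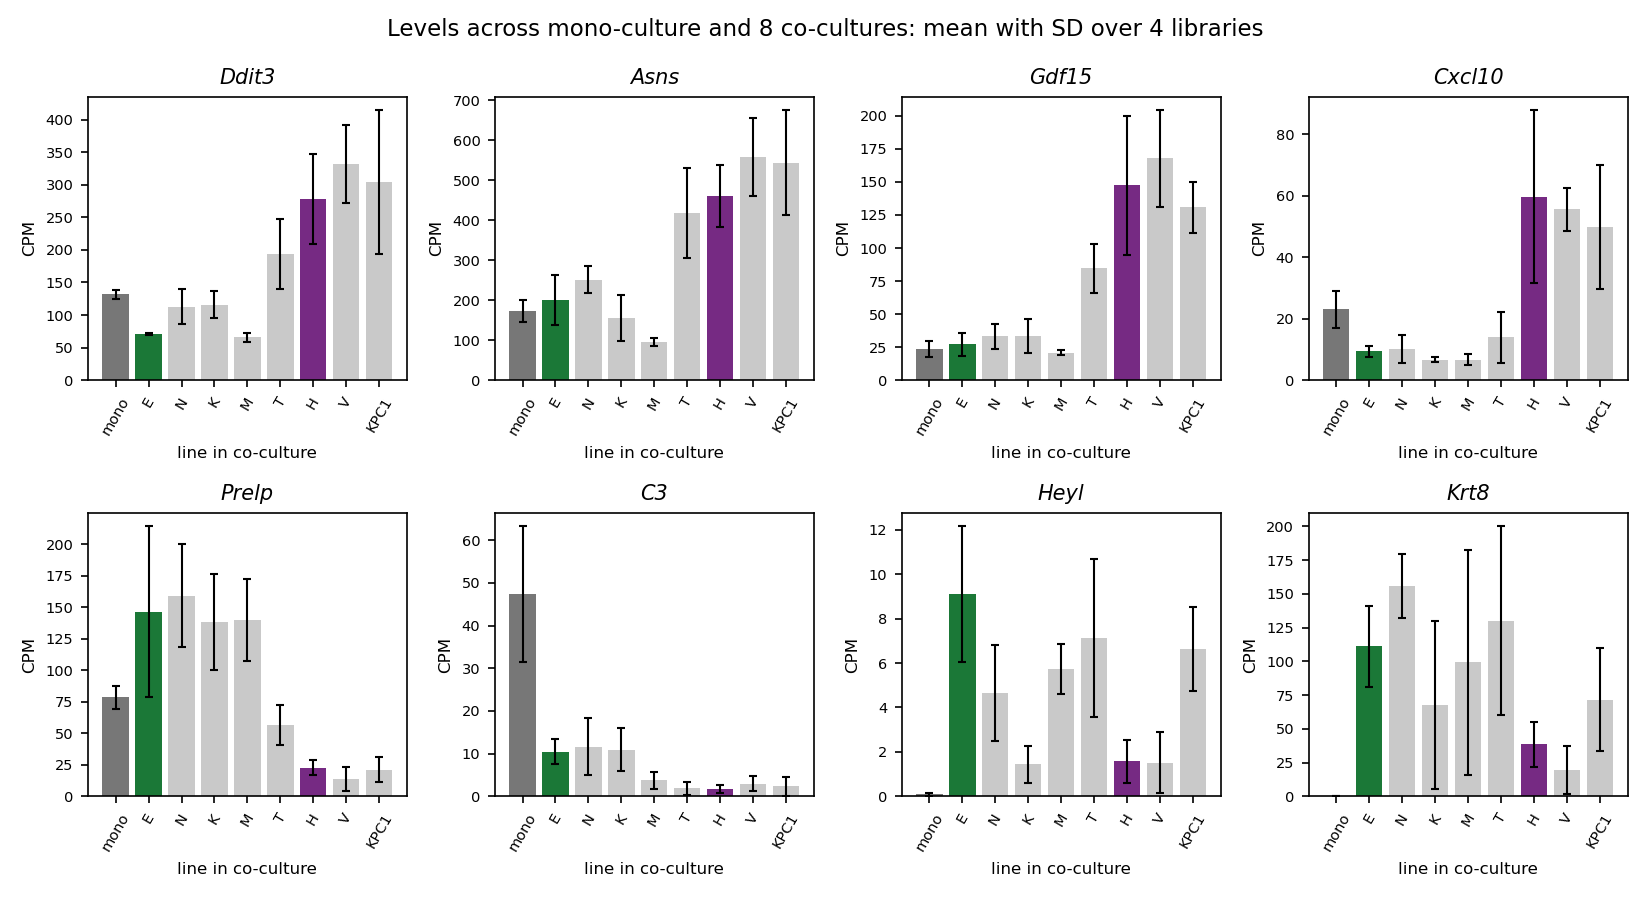
Mean level in CPM (y axis, from 0) of 8 genes in mono-culture and in co-culture with each line (x axis), with bars of 1 SD over 4 libraries, clone E in green and clone H in purple. Ddit3, Asns, Gdf15 and Cxcl10 are high with clones H and V and with KPC1, and Asns is also high with clone T. Prelp is high with clones E, N, K and M, and C3 is highest in mono-culture. Heyl is low with clones K, H and V, and Krt8 among co-cultures is lowest with clones V and H.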

How the data were processed

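RNA of sorted fibroblasts was sequenced from strand-specific poly(A) libraries as paired ends of 76 bases. The authors deposited whole-number read counts for 39017 genes in 36 libraries, unscaled, and RPKM values (per gene length and per library total). The submitters' processing notes name STAR, featureCounts and edgeR and the build mm10. The annotation, and whether counting used strand, are not given in the sources used here, so antisense and near-identical genes are uncertain.

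Groups came from the labels, 4 libraries each. Genes passing filterByExpr over 9 groups (14439) were scaled by TMM and fitted in edgeR 4.0.16 (R 4.3.3) with 1 coefficient per group over all 36 libraries, by robust quasi-likelihood F-tests with Benjamini-Hochberg adjustment over all genes and a threshold of 0.05. All adjusted p-values are from this edgeR fit. The members and the gene lists were chosen with earlier results of these data known. Genes named were the 12 highest and 12 lowest of clone E against clone H among called genes of at least 2 CPM with no overlap, the 6 highest and 6 lowest of at least 50 CPM, up to 5 members per list with the largest difference, and up to 5 per direction that changed oppositely against mono-culture; other list members were chosen after their values were seen. Promoter windows came from RefSeq (GRCm38.p6, the assembly of mm10). Alternatives used DESeq2 1.42.0, limma 3.58.1 on RPKM values, other scalings and filters, and left-out libraries. The fits were tested on simulated data. Depth was 12532122 to 21985538 counts per library, and the floor of 3 counts covers counting error only.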

Additional observations from a re-analysis of the deposited data

Results flagged for a closer look

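In 35 of 522 sets of 4 libraries examined, 1 library stood apart, with a gap to its nearest neighbour, as a share of the range, above Dixon's critical value for 4 libraries. Chance gives this in about 1 set in 20, or 26.1 sets here. Clone E replicate 1 was the high library for Asns (gap 0.881 of the range), Mthfd2 (0.903), Nars (0.947) and Yars (0.929), and for the mean level of the asparagine, serine and one-carbon enzymes (0.973) and of the tRNA synthetases (0.856). Clone H replicate 4 was the low library for Slc7a5 (0.914), Slc6a9 (0.854), Nars (0.954), Herpud1 (0.905), Cass4 (0.926) and Ptprn (0.874), and for the mean level of the same enzymes (0.849) and synthetases (0.853). It was the high library for the adipogenic, retinoid and lipid storage genes (0.832). Both libraries thus lay on the side of the other clone for amino acid genes.

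Clone E replicate 2 was high for C4b (0.901), Sfrp1 (0.932), Penk (0.839) and Fst (0.869) and low for Fyb (0.847), and replicate 3 was high for Rbp4 (0.916). Clone E replicate 4 was high for the hypoxia genes (0.921) and the metallothioneins and zinc transporters (0.907). With clone H, replicate 1 was low for Bub1 (0.846), and replicate 3 was low for Gdpd2 (0.848) and for the Wnt genes (0.934) and high for the clock genes (0.838). In mono-culture, replicate 1 was low for Chac1 (0.857) and Inhba (0.872) and high for Gda (0.871) and Trim54 (1.0), replicate 3 was high for Tnnt2 (0.832) and low for the hedgehog (0.845) and epithelial (0.863) lists, and replicate 4 was high for Krt8 (1.0). For Trim54 and Krt8 the other mono-culture libraries were at 0.

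For 2 of the 10 genes named for opposite changes, every clone E library lay on one side of every mono-culture library and every clone H library on the other: Ly6c1, with a log2 difference of clone E over clone H of 2.90, and Ddit3, with -1.97. The difference between the clones chose the pair, so no p-value is given for it.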

How the results depend on the processing

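The 3 counts of genes stayed within 1.5 times their value in all 54 comparisons with an alternative. For clone E against clone H the count of 4569 became 4813 with DESeq2, 3928 without a filter, 4064 with at least 10 counts in every library, 3850 with only the 8 libraries compared, and 3291 to 4568 with 1 library left out. Left-out libraries gave 3664 to 4312 genes for clone E against mono-culture and 6920 to 7786 for clone H. The share called higher with clone E against mono-culture was 51.4% in edgeR and 41.0% with limma on log2(RPKM + 1), and 43.3% with library size only. For clone H against mono-culture it was 51.3% and 42.6% with library size only.

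Replicate numbers are shared between groups, and whether they mark shared handling was not tested. Over all genes, deviations of same-numbered E and H libraries correlated at 0.07, -0.12, 0.29 and -0.09. By this measure, 1 of 4 libraries correlated best with its own number. The mean log2(CPM + 1) of the interferon list rose with replicate number in both clones. It was 4.11, 4.21, 4.57 and 4.66 with clone E and 4.17, 4.88, 5.50 and 5.65 with clone H. Mono-culture, at 5.65, 5.14, 5.06 and 5.92, did not follow that order. The main fit held no replicate block. With the block, more genes passed: 5352 between the clones, and 5349 for clone E and 8395 for clone H against mono-culture.

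Of the 129 named genes examined, none changed direction where called. Without some single library, 12 lost their call against mono-culture with clone E and 11 with clone H. Between the clones 6 lost it: Hspa5, Usp18, Ctgf, Col3a1, Col12a1 and Thbs2. List medians moved beyond the spread between libraries in 30 cases and not in 600, and the median changed sign in 8 lists near 0. The adipogenic list ranged from 0.28 to 0.99 with 1 clone H library left out. Depth limits genes under 1 CPM, where a level rests on few counts.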
